A study of Rattus norvegicus with 9 samples.

Results

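Biliary epithelial surface and junction genes were followed in whole livers of 3 groups of rats. The set has 9 genes of the 40154 gene rows measured, chosen by name as surface, junction and cilium genes of bile duct and progenitor cells: Epcam, Cd24, Prom1, Cdh1, Cldn4, Cldn7, Anxa4, Pkhd1 and Bicc1. RNA sequencing had been done on 3 HepLPC, 3 PBS and 3 normal livers of 5-month-old wild type Sprague-Dawley rats. In the HepLPC group, rats with cirrhosis had been given rat HepLPCs, which are progenitor-like cells derived from hepatocytes. In the PBS group, rats with cirrhosis had been given an injection of PBS (buffered saline) in place of cells. Normal livers had neither CCl4, the toxin that stands behind the cirrhosis, nor transplanted cells. The route, cell dose and time of the injections and the sex of the rats are not given in the sources used here. The normal rats lacked the injection as well as the injury, so those effects cannot be told apart. RNA of the injected cells and RNA of the host liver, both rat, also cannot be told apart. The sources do not say whether the replicates are different animals. The p-values therefore cover the spread among these 9 libraries, and that spread may be technical in part.

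Bile ducts are lined by cholangiocytes, polarised epithelial cells that seal the lumen with tight junctions, hold together through cadherins and carry a primary cilium. In chronic liver injury, duct-like cells spread from the portal tracts in what is called a ductular reaction, and the same surface proteins mark bipotent progenitor cells of the liver. Hepatocytes share some of these genes, above all E-cadherin, and lack others. In whole liver RNA, fewer cells of a type and less RNA per cell cannot be told apart.

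Levels are in RPKM (reads divided by the gene model's length in kilobases and by the reads of the library in M, megareads), a unit that allows genes of different length to be set side by side. The RPKM values held whole reads, which gave 17.4 to 21.8 M reads per library. Changes are differences of mean log2(RPKM + 1) with their standard error (SE), from limma fitted to all 9 libraries. A gene was called at an adjusted p under 0.05 over the 11124 genes that reached 1 RPKM in no fewer than 3 libraries. The log2(RPKM + 1) scale understates changes of genes with low RPKM. Of the 9 genes, 8 passed that filter and Pkhd1 did not. Prom1, Cldn4, Cldn7 and Bicc1 passed through the PBS libraries alone, so counts over the genes that passed describe the set and support nothing. The gene lists further below met the same filter and were chosen with earlier results of these data known. Their counts and medians, too, describe the lists and support nothing. The labelled tissue, liver, was checked by 10 hepatocyte markers, which summed to 63898 to 89233 RPKM in each library. PBS replicate 1 and HepLPC replicate 2 stood apart in the signed deviation of a library from the mean of its group. Across all tested genes, those with longer gene models tended to lie lower against the group mean in these 2 libraries. The Spearman correlation of deviation with length was -0.564 in PBS replicate 1 and -0.528 in HepLPC replicate 2, against -0.157 to 0.423 in the other libraries. The members' changes are therefore also given without these 2 libraries. The median change of all tested genes was 0.18 between PBS and normal livers and -0.14 between HepLPC and PBS livers, and the changes below are read against it.

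In normal livers the 9 genes covered a wide range of levels. Cdh1 was highest with a mean of 30.1 RPKM, followed by Anxa4 with 18.2, Epcam with 7.60 and Cd24 with 0.683 RPKM, and no 2 neighbours in this order overlapped between libraries. The remaining 5 genes, Bicc1, Pkhd1, Cldn7, Prom1 and Cldn4, lay between 0.178 and 0.0698 RPKM and overlapped their neighbours. In PBS livers the upper 3 genes came together, with Anxa4 at 29.0, Cdh1 at 28.4 and Epcam at 28.2 RPKM, and Cd24 followed with 18.7 RPKM. The other 5 genes then lay between 3.01 and 1.82 RPKM. In HepLPC livers the order of the first 4 genes was again Cdh1, Anxa4, Epcam and Cd24, at 25.0, 16.5, 8.81 and 1.46 RPKM.

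**Figure D1:**
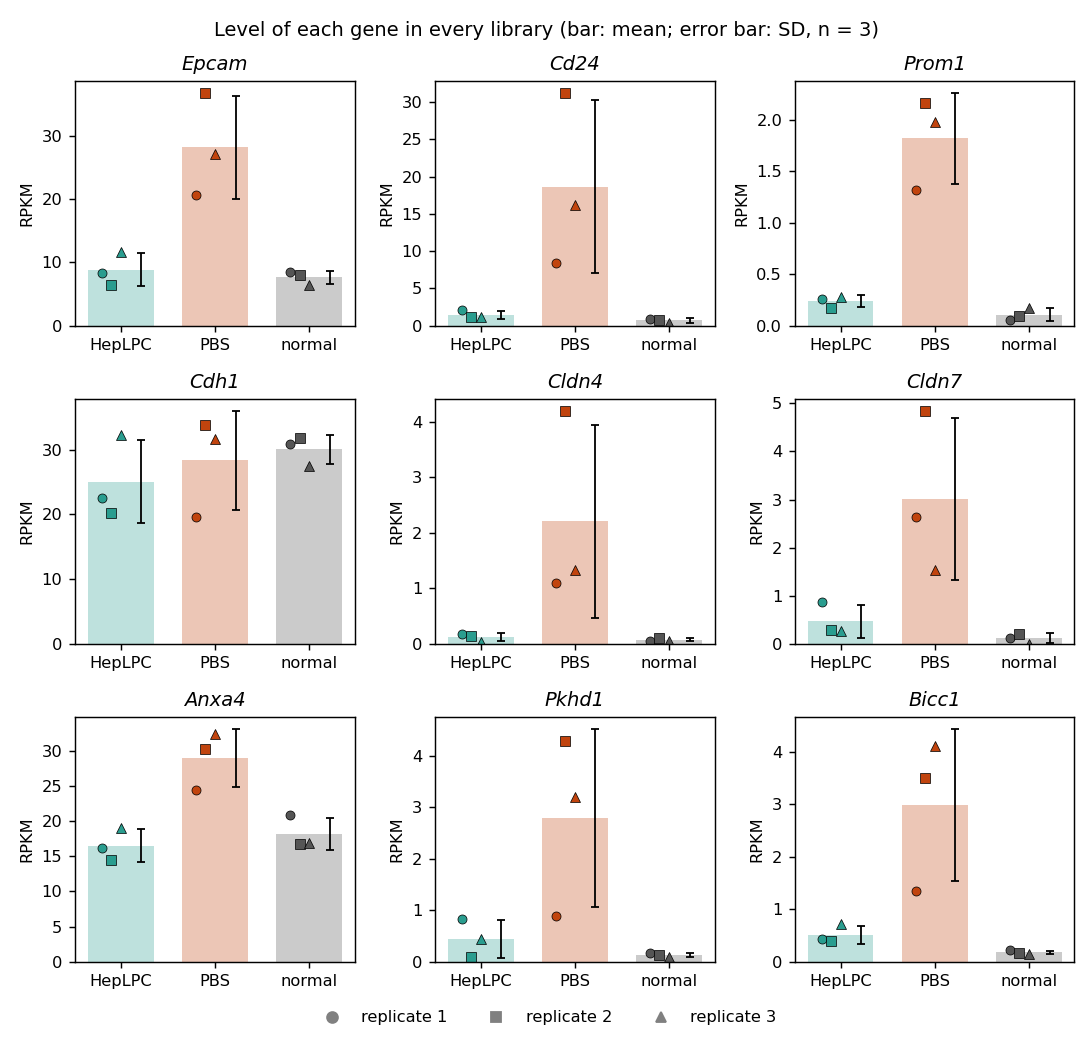
RPKM of each gene in HepLPC, PBS and normal livers. Points are libraries, with the marker shape giving the replicate number, bars are group means and error bars the SD (n = 3). For 8 of the 9 genes each PBS library lies above each HepLPC and each normal library, and Cdh1 is the exception.

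Surface antigens of duct and progenitor cells came first. Epcam, the epithelial cell adhesion molecule, was at 8.36, 6.48 and 11.6 RPKM in HepLPC livers, at 20.6, 36.8 and 27.1 RPKM in PBS livers and at 8.43, 7.98 and 6.40 RPKM in normal livers (replicates 1 to 3). The PBS libraries did not overlap with either other group, while the HepLPC and normal libraries did overlap. Epcam rose in PBS against normal livers by 1.73 on the log2 scale (SE 0.24, adjusted p = 0.00208 by limma). It fell by 1.57 in HepLPC against PBS livers (SE 0.24, adjusted p = 0.0109). HepLPC and normal livers differed by 0.16 (95% confidence interval -0.37 to 0.70, adjusted p = 0.877). The fall was not called without HepLPC replicate 1 (adjusted p = 0.0504), without PBS replicate 3 (adjusted p = 0.0534) or with only the 2 groups compared in the fit (adjusted p = 0.0539). Without PBS replicate 1 and HepLPC replicate 2 Epcam rose by 1.93 and fell by 1.59 (adjusted p = 0.00133 and 0.0133).

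Cd24, a small heavily glycosylated surface protein of progenitor cells that B cells and neutrophils also carry, changed most of the 9 on this scale. It was at 2.05, 1.17 and 1.15 RPKM in HepLPC livers, at 8.47, 31.3 and 16.2 RPKM in PBS livers and at 0.950, 0.720 and 0.378 RPKM in normal livers. All 3 groups lay apart from each other, with the HepLPC libraries just above the normal ones. Cd24 rose by 3.38 in PBS against normal livers (SE 0.38, adjusted p = 0.000852, limma). It fell by 2.84 in HepLPC against PBS livers (SE 0.38, adjusted p = 0.00578). The difference between HepLPC and normal livers was 0.54 (95% confidence interval -0.30 to 1.39, adjusted p = 0.736) and did not pass. The rise and the fall were each called in all of the 20 alternative fits. Without the 2 libraries that stood apart they were 3.82 and -3.20 (adjusted p = 0.000708 and 0.00732).

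Prom1 encodes prominin-1 (CD133), a glycoprotein of membrane protrusions that marks progenitor cells in several epithelia. Its values were 0.254, 0.172 and 0.281 RPKM in HepLPC livers, 1.32, 2.17 and 1.97 RPKM in PBS livers and 0.0590, 0.0899 and 0.173 RPKM in normal livers, which rest on 17 to 25, 120 to 228 and 6 to 19 reads per library. The PBS libraries again lay above all others. Prom1 rose by 1.34 in PBS against normal livers (SE 0.14, adjusted p = 0.00067, limma) and fell by 1.18 in HepLPC against PBS livers (SE 0.14, adjusted p = 0.00452). Both calls held in all of the 20 alternative fits, with 1.47 and -1.28 without PBS replicate 1 and HepLPC replicate 2 (adjusted p = 0.000781 and 0.00732). With a pseudocount of 0.1 in place of 1 Prom1 rose by 3.22 and fell by 2.50.

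Among the junction genes, the 2 claudins of tight junctions were called and the cadherin of adherens junctions was not. Claudins seal the space between epithelial cells, and claudin-7 is known to bind EpCAM in the membrane. Cldn7 was at 0.862, 0.274 and 0.261 RPKM in HepLPC livers, at 2.63, 4.85 and 1.53 RPKM in PBS livers and at 0.114, 0.209 and 0 RPKM in normal livers. The 3 groups did not overlap, and the normal libraries held only 0 to 6 reads each. Cldn7 rose by 1.77 in PBS against normal livers (SE 0.28, adjusted p = 0.00426, limma). Pooled reads per M were 28.2 times as high in PBS as in normal livers (95% interval 14.6 to 62.5, which covers counting error only). It fell by 1.39 in HepLPC against PBS livers (SE 0.28, adjusted p = 0.0338). This fall was called in 5 of the 20 alternative fits, with adjusted p from 0.0257 to 0.11. Of the 9 fits without 1 library, it held only without PBS replicate 3, and it was not called without any 1 of the other 8 libraries. Without PBS replicate 1 and HepLPC replicate 2 together the rise was 1.80 (adjusted p = 0.0122) and the fall, -1.33, was not called (adjusted p = 0.0992).

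Cldn4 was lower still, at 0.173, 0.144 and 0.0319 RPKM in HepLPC livers, at 1.09, 4.20 and 1.32 RPKM in PBS livers and at 0.0558, 0.102 and 0.0518 RPKM in normal livers. In all, 12, 238 and 8 reads lay behind the HepLPC, PBS and normal values, and PBS replicate 2 alone held 156 of them. Cldn4 rose by 1.46 in PBS against normal livers (SE 0.29, adjusted p = 0.0132, limma), with pooled reads per M 32.3 times as high (95% counting interval 16.1 to 75.7). It fell by 1.40 in HepLPC against PBS livers (SE 0.29, adjusted p = 0.0378). The rise was called in each of the 20 alternative fits, with 1.04 without PBS replicate 2 (adjusted p = 0.00337) and the highest adjusted p, 0.0496, without normal replicate 3. The fall was called in 8 of 20 alternative fits (adjusted p from 0.0103 to 0.124). Of single libraries, only the fits without PBS replicate 1 or PBS replicate 2 kept it. Cldn4 rose by 1.70 and fell by 1.66 without PBS replicate 1 and HepLPC replicate 2 together (adjusted p = 0.010 and 0.0453). HepLPC and normal livers differed by 0.059 in Cldn4 (95% confidence interval -0.60 to 0.72) and by 0.38 in Cldn7 (-0.25 to 1.02), and neither passed (adjusted p = 0.968 and 0.751).

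The promoter of Cldn7 is shown because it stood out among those of the set for its repeated E-boxes, the motif CAGGTG that repressors of the Snail and Zeb families bind. RefSeq windows of 250 bases before and 50 after the start site (build GRCr8) were at hand for 7 of the 9 genes, 8 windows in all. None was at hand for Cdh1 and Cldn4, so the promoters of these genes were not searched for any motif. The motif, read on both strands, was in 4 of the 8, those of Epcam, Cd24, Cldn7 and 1 of the 2 Prom1 windows, against 18.8% of all 33469 promoters of the table. Cldn7 held 5 matches, and 4 promoters of the table held 5 or more (0.0120%). Epcam held 1, at base -165 from the start site. A match is a description of letters and no evidence of binding. Capitals mark the CAGGTG matches, which read CACCTG where they lie on the opposite strand.
Cldn7, chr10:55188420-55188719, plus strand: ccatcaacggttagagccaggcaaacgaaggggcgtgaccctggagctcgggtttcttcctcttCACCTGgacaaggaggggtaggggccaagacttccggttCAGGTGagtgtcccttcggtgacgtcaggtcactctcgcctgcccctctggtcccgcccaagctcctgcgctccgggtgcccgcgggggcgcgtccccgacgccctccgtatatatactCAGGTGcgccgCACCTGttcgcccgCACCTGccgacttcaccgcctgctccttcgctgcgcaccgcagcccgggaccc
Epcam, chr6:12649629-12649928, minus strand: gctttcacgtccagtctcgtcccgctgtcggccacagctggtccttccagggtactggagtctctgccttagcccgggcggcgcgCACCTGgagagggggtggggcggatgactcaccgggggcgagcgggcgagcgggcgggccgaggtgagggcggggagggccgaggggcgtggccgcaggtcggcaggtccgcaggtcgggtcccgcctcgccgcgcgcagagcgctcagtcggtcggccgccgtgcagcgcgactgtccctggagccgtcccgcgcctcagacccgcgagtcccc

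Cdh1, E-cadherin, the calcium-dependent adhesion protein of epithelial adherens junctions, passed in no comparison. It was at 22.6, 20.2 and 32.3 RPKM in HepLPC livers, at 19.6, 33.8 and 31.6 RPKM in PBS livers and at 30.9, 31.8 and 27.5 RPKM in normal livers, so that all 3 groups overlapped. The difference between PBS and normal livers was -0.12 (95% confidence interval -0.62 to 0.39, adjusted p = 0.779, limma), a span that leaves out a change as large as that of Epcam in the same fit. Between HepLPC and PBS livers it was -0.17 (-0.67 to 0.34, adjusted p = 0.736), and between HepLPC and normal livers -0.28 (-0.79 to 0.23, adjusted p = 0.767). The sign of these small differences was not stable. Without PBS replicate 1 the difference between PBS and normal livers was 0.12, and after rescaling by the median of ratios that between HepLPC and PBS livers was 0.0195.

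Anxa4, annexin A4, a calcium-dependent binder of membrane phospholipids that is abundant in secretory epithelia, moved in the same direction as Epcam by less. Its values were 16.1, 14.4 and 19.0 RPKM in HepLPC livers, 24.4, 30.3 and 32.3 RPKM in PBS livers and 20.8, 16.7 and 16.9 RPKM in normal livers. The PBS libraries lay above the rest, and the HepLPC libraries overlapped with the normal ones. Anxa4 rose by 0.64 in PBS against normal livers (SE 0.16, adjusted p = 0.0282, limma) and fell by 0.78 in HepLPC against PBS livers (SE 0.16, adjusted p = 0.0316). The rise had a 95% confidence interval of 0.29 to 0.99, which does not reach that of Epcam (1.20 to 2.27). After rescaling by the median of ratios the rise was 0.41 and not called (adjusted p = 0.0776), and under quantile normalization it was 0.48 and not called (adjusted p = 0.0984). It was also not called without PBS replicate 2 or 3 or normal replicate 2 or 3 (adjusted p = 0.0842, 0.117, 0.115 and 0.103). The fall was called in 11 of 20 alternative fits (adjusted p from 0.0226 to 0.142) and not without HepLPC replicate 1 or 2, PBS replicate 2 or 3, or normal replicate 2 or 3. Anxa4 rose by 0.76 and fell by 0.80 without PBS replicate 1 and HepLPC replicate 2 (adjusted p = 0.0082 and 0.0296).

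**Figure D2:**
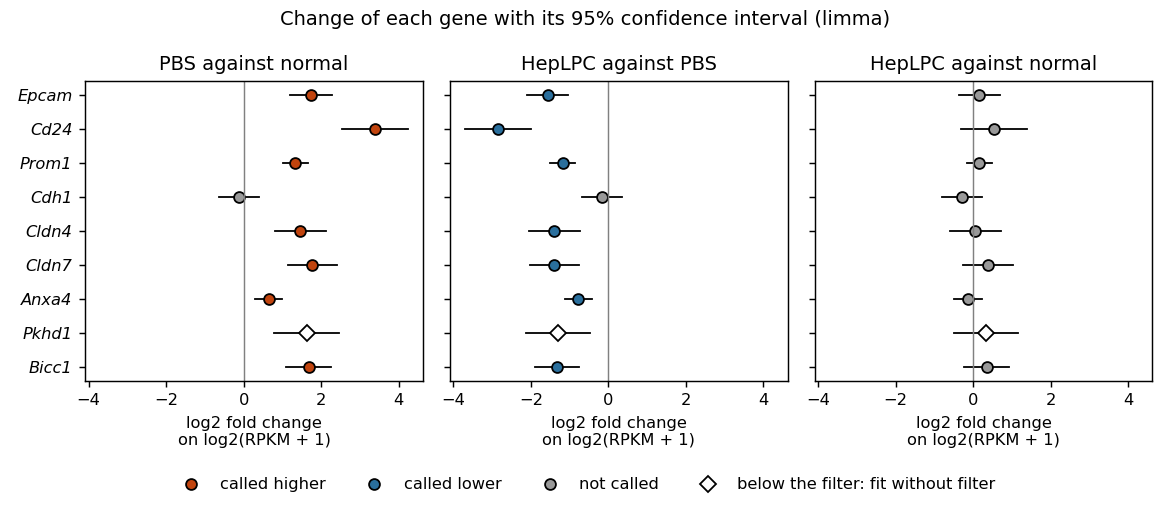
Log2 fold change on the log2(RPKM + 1) scale (horizontal axes) of each gene in the 3 comparisons, with 95% confidence intervals from limma. Filled circles are tested genes, coloured where called, and the open diamond is Pkhd1 from the fit without a filter. Cd24 lies farthest out (3.38 in PBS against normal livers, -2.84 in HepLPC against PBS livers), Cdh1 lies near 0 in each panel, and each interval of the right-hand panel spans 0.

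The cilium-related genes are known from cystic disease. Pkhd1 encodes fibrocystin, a large receptor-like protein of the cholangiocyte cilium whose loss causes recessive polycystic kidney disease with liver fibrosis in people and bile duct cysts in the PCK rat. It was at 0.825, 0.0854 and 0.432 RPKM in HepLPC livers, at 0.889, 4.29 and 3.19 RPKM in PBS livers and at 0.177, 0.121 and 0.0910 RPKM in normal livers. The lowest PBS library, replicate 1, was only just above the highest HepLPC library, replicate 1, and the lowest HepLPC library, replicate 2, was below all normal libraries. Pkhd1 has the longest gene model of the set, 13305 bases, longer than those of 99.1% of tested genes, and its low values in PBS and HepLPC livers were in the 2 libraries that stood apart. The part of gene length in them was not tested. In the fit with no filter on low values the change was 1.62 in PBS against normal livers (SE 0.36, adjusted p = 0.0354, limma) and -1.30 in HepLPC against PBS livers (SE 0.36, adjusted p = 0.133). A further fit, chosen after the data were seen, left out PBS replicate 1 and HepLPC replicate 2 and took genes at 1 RPKM in at least 1 library. In it Pkhd1 rose by 2.06 (SE 0.16, adjusted p = 0.000988, limma) and fell by 1.54 (SE 0.17, adjusted p = 0.0109). This fit drops the lowest PBS and the lowest HepLPC value of Pkhd1, which reached 1 RPKM only in 2 PBS libraries. Its calls therefore support nothing beyond the fits above.

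The promoter of Pkhd1 is shown for an HNF1-like site, since the transcription factor HNF1-beta is known to drive this gene in mouse kidney. The HNF1 core motif GTTAAT, which 7.45% of all promoters hold on either strand, lay at base -51 from the start site and is in capitals. The 13 bases from there on, GTTAATTATTAAa, match 12 of the 13 positions of the full palindromic HNF1 motif, whose middle position takes any base and was counted as matched. A stretch that matched in 12 or more positions was found in 47 promoters of the table (0.140%). It was the only promoter among the 8 windows with the core motif. Of the other motifs searched on both strands, the Grainyhead motif AACCNGTT was in 0 of the 8 windows (2.10% of all promoters). The TEAD motif GGAATG was in 1, that of Bicc1 (14.2%), and the SOX motif ACAAAG in 1, that of Anxa4 (18.8%).
Pkhd1, chr9:30533785-30534084, minus strand: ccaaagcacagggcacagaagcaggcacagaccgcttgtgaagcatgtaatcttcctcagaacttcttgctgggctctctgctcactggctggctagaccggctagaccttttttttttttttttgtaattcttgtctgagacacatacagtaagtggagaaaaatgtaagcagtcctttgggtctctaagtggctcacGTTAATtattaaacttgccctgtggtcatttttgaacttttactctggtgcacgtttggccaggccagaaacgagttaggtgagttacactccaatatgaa

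Bicc1 encodes an RNA-binding protein of the cytoplasm, not of the cell surface, whose loss in mice gives polycystic kidneys. Its values were 0.441, 0.386 and 0.710 RPKM in HepLPC livers, 1.34, 3.50 and 4.11 RPKM in PBS livers and 0.216, 0.171 and 0.147 RPKM in normal livers, and the 3 groups did not overlap. Bicc1 rose by 1.68 in PBS against normal livers (SE 0.26, adjusted p = 0.0035, limma) and fell by 1.33 in HepLPC against PBS livers (SE 0.26, adjusted p = 0.0286). Without PBS replicate 1 and HepLPC replicate 2 the rise was 2.02 and the fall 1.61 (adjusted p = 0.000438 and 0.0047). The fall was called in 11 of 20 alternative fits (adjusted p from 0.00188 to 0.106). Of the fits without 1 library, those without PBS replicate 1 or HepLPC replicate 3 kept it. HepLPC and normal livers differed by 0.35 (95% confidence interval -0.22 to 0.93, adjusted p = 0.748).

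Counted over the set, limma without a filter on low values called 8 of the 9 genes higher in PBS than in normal livers, beside 6.63% of 25034 genes. With the filter 7 of 8 were called higher, beside 10.4% of 11124 genes. In HepLPC against PBS livers 7 of 8 were called lower with the filter, beside 2.93% of genes, and 4 of 9 without it (Epcam, Cd24, Prom1 and Anxa4), beside 1.67%. Leaving out 1 library brought the count of 7 down to 2 without HepLPC replicate 1, to 3 without HepLPC replicate 2, PBS replicate 3, normal replicate 2 or normal replicate 3, and to 4 without PBS replicate 2 or normal replicate 1. It was 6 without PBS replicate 1 and HepLPC replicate 2 together, where Cldn7 was not called. The number of genes called over the whole table also changed when single libraries were left out, as given below. These counts are therefore not read as a result about the set. In HepLPC against normal livers limma called 0 of 8, beside 0.0809% of genes, and 0 of the 8 had an unadjusted p under 0.05. With a pseudocount of 0.1 in place of 1, Cldn7 was at 1.43 (95% confidence interval 0.10 to 2.77, unadjusted p = 0.0377 by limma) and Bicc1 at 1.11 (0.15 to 2.07, unadjusted p = 0.0279), and neither was called (adjusted p = 0.476 and 0.435). The HepLPC libraries nevertheless lay above the normal ones without overlap for Cd24, Cldn7 and Bicc1, 3 of 9 genes, beside 12.3% of tested genes. For 8 of the 9 genes the PBS libraries lay above the normal ones without overlap, beside 32.7% of tested genes, and the HepLPC libraries below the PBS ones, beside 15.6%. These comparisons share the PBS or the normal libraries and are not independent of each other.

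Within groups, 1 library was often low or high for most of the genes. PBS replicate 1 was the lowest PBS library for 8 of the 9 genes, with a median deviation of -0.47 (log2 units, against the mean of the 3 PBS libraries), and PBS replicate 2 the highest for 7 (median 0.41). The exception was Cldn7, which was lowest in PBS replicate 3. HepLPC replicate 2 was the lowest HepLPC library for 6 genes (median -0.18). The deviation in PBS replicate 1 was -0.88 for both Pkhd1 and the short Cd24, and -0.055 for Cldn7, the shortest gene model with 1320 bases. Krt19, a keratin of duct cells, was also lowest in PBS replicate 1 and highest in PBS replicate 2, at 5.53, 31.3 and 10.9 RPKM in PBS replicates 1 to 3. The part of depth or of the share of duct tissue in these deviations was not tested.

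**Figure D3:**
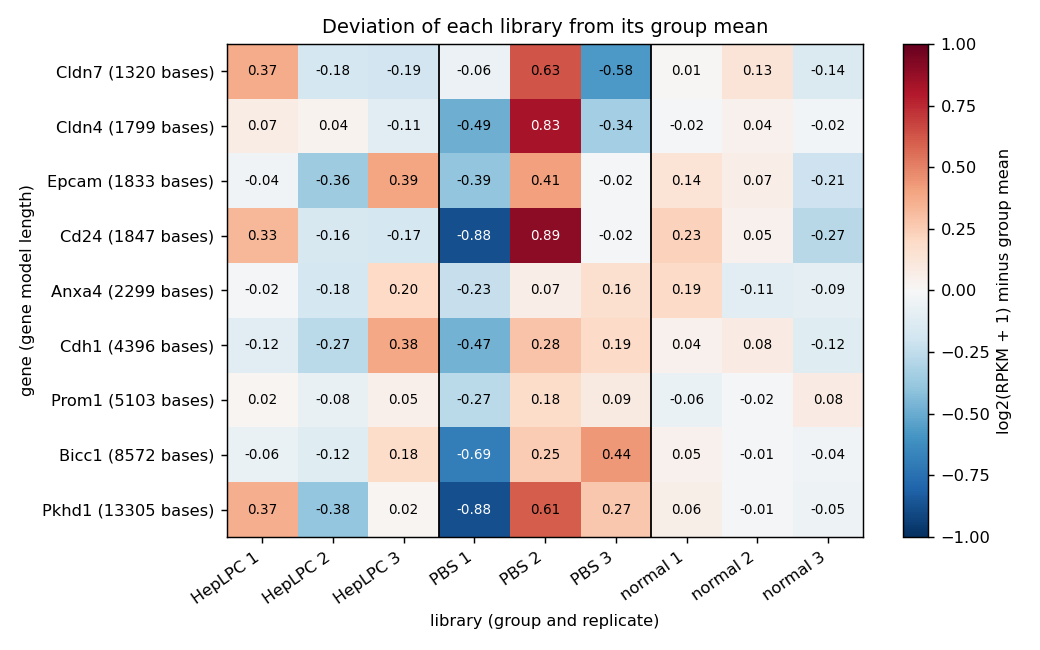
Deviation of each library from its group mean on the log2(RPKM + 1) scale, with genes in order of gene model length from top to bottom and libraries in columns. PBS replicate 1 is below 0 for each of the 9 genes and PBS replicate 2 above 0, from 0.070 for Anxa4 to 0.89 for Cd24.

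Ratios between genes of the same library do not depend on how libraries are scaled to each other, and 7 were computed. The Cdh1 to Epcam ratio of RPKM was 2.70, 3.11 and 2.78 in HepLPC livers, 0.952, 0.919 and 1.17 in PBS livers and 3.67, 3.98 and 4.30 in normal livers, with no overlap between any of the groups. The Anxa4 to Epcam ratio was 1.64 to 2.22 in HepLPC, 0.824 to 1.19 in PBS and 2.10 to 2.65 in normal livers. The Cd24 to Epcam ratio ran the other way, at 0.0992 to 0.245 in HepLPC, 0.411 to 0.850 in PBS and 0.0591 to 0.113 in normal livers. Epcam also changed by less than Krt19, with an Epcam to Krt19 ratio of 4.80 to 5.18 in HepLPC, 1.18 to 3.73 in PBS and 8.89 to 25.8 in normal livers. The Anxa4 to Epcam and Cd24 to Epcam ratios overlapped between HepLPC and normal livers, but not with PBS livers. In the 3 ratios that remain the PBS libraries overlapped with both other groups. The Cd24 to Krt19 ratio was 0.477 to 1.27 in HepLPC, 1.00 to 1.53 in PBS and 0.534 to 2.91 in normal livers. The Pkhd1 to Bicc1 ratio was 0.221 to 1.87 in HepLPC, 0.663 to 1.23 in PBS and 0.620 to 0.818 in normal livers. The Cldn4 to Cldn7 ratio was 0.122 to 0.524 in HepLPC, 0.414 to 0.867 in PBS and 0.489 in the 2 normal livers in which Cldn7 had reads. These ratios were chosen after the levels were seen and carry no test.

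**Figure D4:**
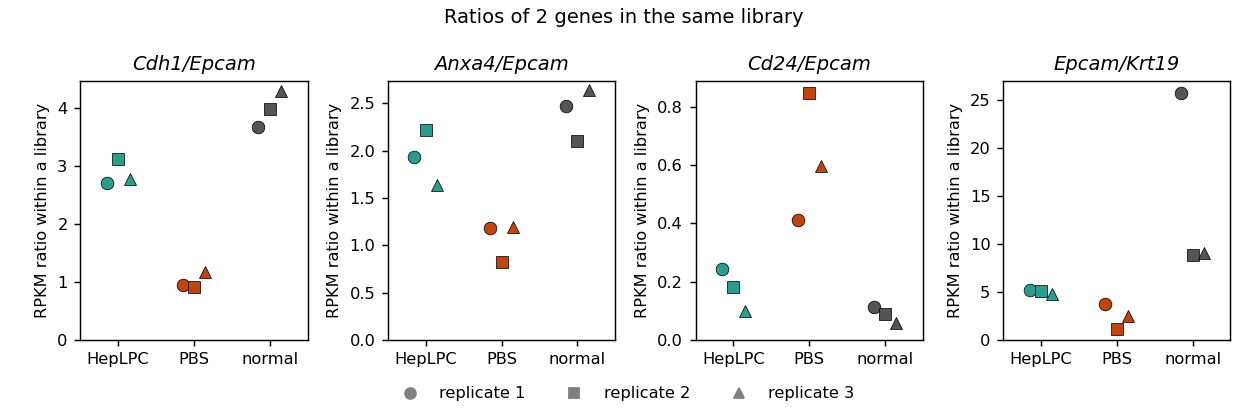
Ratio of the RPKM of 2 genes within each library (vertical axes, linear, from 0) for HepLPC, PBS and normal livers. Points are libraries and the marker shape gives the replicate number. The 3 PBS libraries lie lowest for Cdh1/Epcam, Anxa4/Epcam and Epcam/Krt19 and highest for Cd24/Epcam.

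Other cell types can carry some of these genes, and their markers moved as follows. Bile duct markers (10 genes, none at 0 in every library) summed to 12.5 to 22.4 RPKM in HepLPC, 35.2 to 148 RPKM in PBS and 13.4 to 14.1 RPKM in normal livers, and 6 of 8 tested rose in PBS against normal livers, among them Krt19 (3.06) and Sox9 (1.70), beside 10.4% of all tested genes. In HepLPC against PBS livers 5 of 8 fell, among them Krt19 (-2.32) and Sox9 (-1.42), beside 2.93% of all tested genes, with a median of -1.43. Sox9, Cftr and Sctr passed the filter through the PBS libraries alone, and Krt7 and Krt23 did not pass it. The counts over the duct markers therefore describe the list and support nothing. B cell and plasma cell markers (9 genes) summed to 10.9 to 32.9, 18.4 to 24.7 and 5.57 to 9.49 RPKM in HepLPC, PBS and normal livers, and the B cell genes Cd79a, Cd79b, Ms4a1, Pax5 and Blk stayed under 1 RPKM in every library. Jchain, the joining chain of antibodies made by plasma cells, rose in PBS against normal livers (17.4 ± 2.39 against 4.19 ± 1.67 RPKM, SD, n = 3 each; 1.87, adjusted p = 0.019, limma) and was at 18.6 ± 10.4 RPKM in HepLPC livers, where it passed neither against PBS nor against normal livers (adjusted p = 0.938 and 0.215). Neutrophil markers (9 genes) summed to 3.73 to 4.54, 7.95 to 21.5 and 2.54 to 5.20 RPKM in the same order, with S100a9 (1.25) and Retnlg (0.86) called higher in PBS than in normal livers and Retnlg called lower in HepLPC than in PBS livers (-1.04). Mesothelial markers (7 genes) summed to 7.45 to 13.0, 8.67 to 22.4 and 5.42 to 9.51 RPKM. Among these Msln, mesothelin, rose in PBS against normal livers (6.22 ± 4.10 against 0.104 ± 0.0953 RPKM, SD, n = 3 each) and fell in HepLPC against PBS livers (-2.38). Lrrn4 and Gpm6a, also tested, were called in neither comparison. They were at 0.23 and -0.26 in PBS against normal livers and at 0.15 and 0.41 in HepLPC against PBS livers. Upk3b, Wt1, Upk1b and Muc16 stayed under 1 RPKM throughout. Erythroid precursor markers (7 genes) summed to 7.19 to 9.10, 5.63 to 13.4 and 7.41 to 19.3 RPKM, and 0 of the 2 tested were called in any comparison. Myofibroblast and stellate cell markers (10 genes) summed to 62.8 to 67.3, 85.9 to 139.6 and 32.9 to 34.0 RPKM. Of these, 5 of 9 tested rose in PBS against normal livers, Col1a1 (2.61), Col3a1 (2.20), Tagln (1.44), Acta2 (1.19) and Des (0.89), and 2 fell in HepLPC against PBS livers, Col1a1 (-1.88) and Col3a1 (-0.92). Macrophage markers (8 genes) summed to 168 to 245, 220 to 318 and 145 to 206 RPKM, and 0 of 8 were called in any comparison. Of hepatocyte markers 0 of 10 were called in any comparison, with medians of -0.053 in PBS against normal livers and 0.13 in HepLPC against PBS livers. The part of these cell types in the changes of the 9 genes was not tested.

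Of 33 further tight junction genes 22 were tested, and 3 rose in PBS against normal livers: Cldn5, a claudin of endothelium (1.03, SE 0.25, adjusted p = 0.027 by limma), the polarity gene Pard6b (0.83, SE 0.19, adjusted p = 0.0237) and Jam2 (0.70). The share called higher over all tested genes was 10.4%, so that 3 of 22 is near the background. The median change of the 22 was 0.17, beside 0.18 for all tested genes. In HepLPC against PBS livers 1 fell, Jam2, an adhesion molecule of endothelial junctions (-0.63, SE 0.14, adjusted p = 0.0421), where 2.93% of all tested genes were called lower, and the median was -0.26, beside -0.14. Cldn3, a claudin shared by hepatocytes and duct cells, was at 42.6 ± 8.61 RPKM in HepLPC, 49.4 ± 12.3 RPKM in PBS and 33.9 ± 0.634 RPKM in normal livers (SD, n = 3 each), and passed in no comparison (adjusted p = 0.13 in PBS against normal livers and 0.636 in HepLPC against PBS livers).

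Of 24 adherens junction and desmosome genes 18 were tested and 2 rose in PBS against normal livers, the desmosome-associated Ppl, periplakin (1.43, SE 0.28, adjusted p = 0.012, limma), and Pkp2, plakophilin-2 (0.81, SE 0.14, adjusted p = 0.00649), with a median of 0.18. This count, too, is near the 10.4% of all tested genes. In HepLPC against PBS livers limma called 0 of 18, with 2 at an unadjusted p under 0.05 and a median of -0.26. The cadherins of the list that were tested, Cdh2 and Cdh17, did not pass in any comparison either. Cdh2, N-cadherin of hepatocytes, was at 36.3 ± 8.27 RPKM in HepLPC, 43.1 ± 10.4 RPKM in PBS and 38.1 ± 2.99 RPKM in normal livers, and Cdh17, liver-intestine cadherin, at 32.8 ± 13.9, 26.6 ± 20.0 and 26.0 ± 2.42 RPKM in the same groups (SD, n = 3 each).

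Of 26 epithelial surface and EpCAM-associated genes 18 were tested and 13 rose in PBS against normal livers, beside 10.4% of all tested genes, with a median of 1.56. In HepLPC against PBS livers 12 fell, beside 2.93% of all tested genes, with a median of -1.32. The list was chosen with earlier results of these data known, and Ehf, 1 of its called genes, reached 1 RPKM in the PBS libraries alone. These counts and medians therefore describe the list and support nothing. Tspan8, a tetraspanin of epithelial membranes, was at 2.18 ± 0.358 RPKM in HepLPC, 16.0 ± 14.1 RPKM in PBS and 0.990 ± 0.456 RPKM in normal livers (SD, n = 3 each). It rose by 2.80 (SE 0.45, adjusted p = 0.00462) and fell by 2.11 (SE 0.45, adjusted p = 0.0407). Anxa2, annexin A2, was at 14.1 ± 5.52 RPKM in HepLPC, 50.8 ± 5.60 RPKM in PBS and 6.76 ± 0.817 RPKM in normal livers. It rose by 2.74 (SE 0.23, adjusted p = 0.000281) and fell by 1.83 (SE 0.23, adjusted p = 0.00516). Several of the called genes of this list, Anxa1, Anxa2, Anxa5, Cd9 and Cd44, are widely expressed outside epithelia, in macrophages and fibroblasts among others. Prom2, the paralog of Prom1, did not exceed 0.0262 RPKM in any library.

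Of 28 cilium and cystic disease genes 14 were tested, and 4 rose in PBS against normal livers, among them Pkd2 and Kif3a, beside 10.4% of all tested genes, with a median of 0.26. Pkd2 passed the filter through the PBS libraries alone, so this count, too, only describes the list. Pkd2, polycystin-2, a cation channel of the cilium, rose by 1.01 (SE 0.18, adjusted p = 0.0082, limma) and the kinesin subunit Kif3a by 0.76 (SE 0.15, adjusted p = 0.0121). In HepLPC against PBS livers 1 fell, Pkd2, at 0.705 ± 0.240 RPKM in HepLPC and 2.37 ± 0.721 RPKM in PBS livers (-0.97, SE 0.18, adjusted p = 0.0251), beside 2.93% of all tested genes, and the median was -0.25. In HepLPC against normal livers none of these 4 lists had a called gene (0 called by limma; 0, 2, 4 and 0 at an unadjusted p under 0.05, in the order in which the lists were described).

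**Figure D5:**
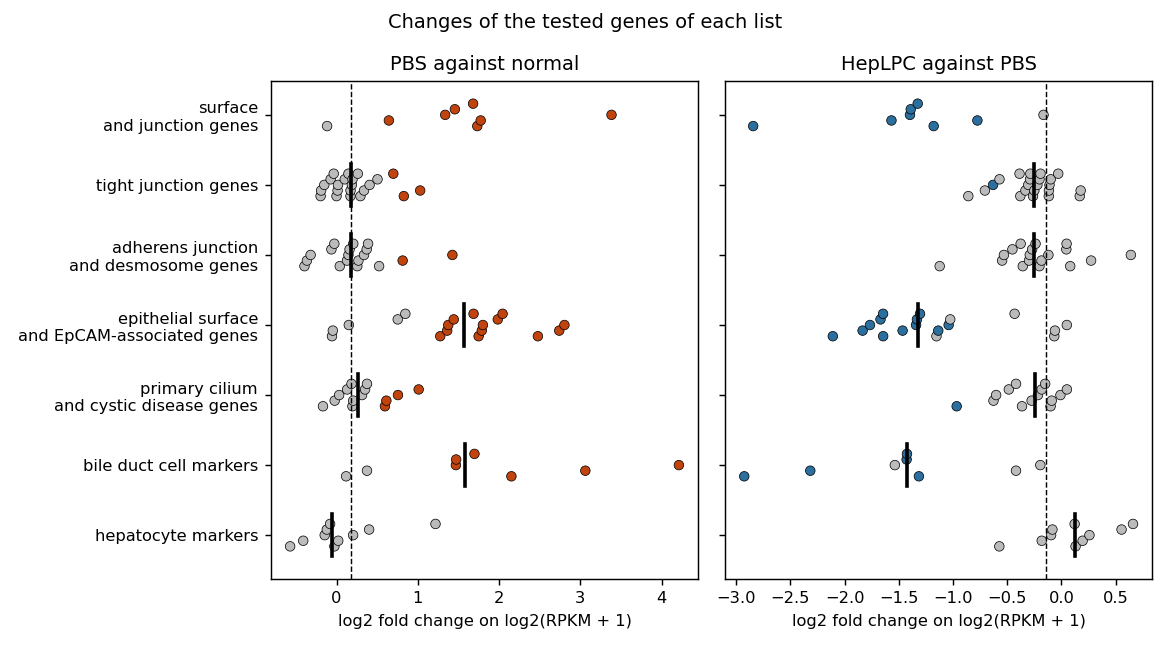
Log2 fold change on the log2(RPKM + 1) scale of the tested genes of each list in PBS against normal livers (left) and HepLPC against PBS livers (right). Red points were called higher, blue points lower and grey points were not called. Short black bars are list medians and the dashed line is the median of all 11124 tested genes. The tight junction, adherens junction and cilium lists have medians near that line, while the epithelial surface list has a median of 1.56 on the left and -1.32 on the right. The lists were chosen with earlier results of these data known, and some genes passed the filter through the PBS libraries alone. The medians therefore only describe the lists.

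Across the 9 libraries, the genes whose log2(RPKM + 1) ran closest to the mean standardised profile of the 8 tested genes were Ehf (Pearson r 0.988), Sctr (0.987), Mfsd12 (0.985), Fxyd3 (0.984), Cftr (0.984), Degs2 (0.981), Flna (0.980) and Pkd2 (0.980). The libraries fall into 3 groups, so these values mostly describe a shared difference between groups. Ehf, an ETS-family transcription factor of epithelia, was at 0.253 ± 0.128 RPKM in HepLPC, 2.58 ± 1.15 RPKM in PBS and 0.0712 ± 0.0315 RPKM in normal livers. Sctr, the secretin receptor of cholangiocytes, was at 0.326 ± 0.245, 2.84 ± 1.98 and 0.274 ± 0.0807 RPKM in the same groups (SD, n = 3 each). Of the set itself Epcam ran closest to that profile (0.989) and Cdh1 least (0.346). Each of these genes is part of the profile, which raises its own r, so these values cannot be set beside those of genes outside the set.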

How the data were processed

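The authors deposited 1 table of RPKM values per library, with 40154 gene rows, and the unit stands in the file headers. As tools, the submitters' processing notes name HISAT2 and StringTie; as build, they name hg19, a human genome. The row names are nevertheless rat symbols. Which build, annotation and strand setting lie behind the RPKM is therefore uncertain, as is the handling of reads shared between similar genes. From the deposited RPKM, whole reads were recovered for 20959 of 20959 genes above 0 in 3 or more libraries, within 0.01 read, and 99.8% of the gene lengths that follow were whole within the same tolerance. Promoters are from RefSeq (GRCr8) and were matched by symbol.

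Genes were tested with limma 3.58.1 in R 4.3.3 (lmFit, eBayes with a mean-variance trend, 2-sided, 6 residual degrees of freedom) on log2(RPKM + 1), with Benjamini-Hochberg adjustment over all 11124 genes tested, after a check on simulated data. Intervals on pooled reads are exact (Clopper-Pearson). Members and lists were chosen with earlier results of these data known. All 9 members are named. From each list the 2 largest called rises and falls and paralogs of members are named, with others named after their values were seen. Some genes of the lists are not reported here by name. No set test was run.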

Additional observations from a re-analysis of the deposited data

How the results depend on the processing

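Alternatives changed the pseudocount, filter, scaling, libraries, groups in the fit, variance trend and replicate block, and 1, chosen after seeing the data, combined a filter of 1 RPKM in 1 library with leaving out PBS 1 and HepLPC 2. The rises of Epcam, Cd24, Prom1, Cldn4, Cldn7 and Bicc1 in PBS against normal livers kept their call in each of the 20 alternatives, and so did the falls of Cd24 and Prom1 in HepLPC against PBS livers. Members called between PBS and normal livers numbered 6 to 7 without single libraries. Between HepLPC and PBS livers they numbered 7, against 4 with no filter, 4 with quantile normalization, 2 with only the 2 groups compared and 2 to 6 without single libraries, and 0 between HepLPC and normal livers throughout.

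Genes called between PBS and normal livers numbered 1262 (1157 higher, 105 lower), against 782 after rescaling by the median of ratios (566 higher, 216 lower), 714 with quantile normalization (492 higher, 222 lower), 3168 without PBS 1 and HepLPC 2, 3547 when the wider filter was added, and 562 to 1809 without single libraries. Between HepLPC and PBS livers 341 were called (15 higher, 326 lower), against 204 after rescaling, 213 with quantile normalization (32 higher, 181 lower), 86 with only the 2 groups compared and 90 to 398 without single libraries. Between HepLPC and normal livers 9 were called, against 0 with no filter, 5 after rescaling, 3 with quantile normalization, 16 without PBS 1 and HepLPC 2, and 1 to 14 without single libraries. The cause of these shifts was not tested.

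Replicate numbers did not pair the libraries: deviations of same-numbered libraries correlated at -0.412 to 0.310, and 3 of 9 pairs were over 0.1. With the replicate number as a block, 787, 198 and 1 genes were called in the 3 comparisons, in the order above, and 6, 5 and 0 members. Under the block the rise of Anxa4 (adjusted p = 0.0656) and the falls of Anxa4 (0.075) and Cldn4 (0.0554) were not called, which does not show a weaker effect.

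Signs turned for small differences. Cdh1 was at 0.12 in PBS against normal livers without PBS replicate 1, also without PBS 1 and HepLPC 2 under either filter; its range without single libraries was -0.26 to 0.12. After rescaling it was at 0.0195 in HepLPC against PBS livers. In HepLPC against normal livers Epcam ranged from -0.0326 (without HepLPC replicate 3) to 0.34 without single libraries, and Prom1 and Cldn4 at -0.0475 and -0.0927 with quantile normalization. Pkhd1 had a value only under the 3 wider filters, so the other alternatives were not run for it. Depth limits Cldn4 and Cldn7 most, at 0 to 6 reads per normal library.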
